A study of Mus musculus with 2 samples.

Results

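The 5 genes described here are *Ccl2*, *Ccl7*, *Ccl8*, *Ccl12* and *Ccr2*, of 31053 genes measured by single-cell RNA sequencing in mouse skin wounds. They were taken by symbol from the deposited counts, 1 row each, and no measured value entered the choice. Wounds of the back skin of 7- to 9-week-old C57BL/6 mice were collected on day 5 with a 10 mm punch, dissociated and sorted for live cells. Both sample labels give the genotype *Mrc1*-DTR, in which the promoter of *Mrc1*, the gene of the mannose receptor CD206, drives the diphtheria toxin receptor, so that the toxin kills cells that express it. The labels give PBS as the treatment of the control library and diphtheria toxin (DTX) as that of the other, whereas the methods describe wild-type mice given the toxin as controls. Male mice were pooled into each library according to the methods, with technical but no biological replicates.

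There was 1 library per condition, so no test between the conditions was possible, and differences between mice cannot be told apart from differences between treatments. Levels are given as CPM, the unique molecular identifiers (UMIs, which count RNA molecules) of a gene per 1000000 UMIs summed over the cells of a class. Values in parentheses after a level, ratio or share are 95% intervals, which cover counting error only, and so does every limit given here. The control library held 12058 cells with a median of 7649 UMIs and the DTX library 11031 cells with a median of 6502, of which 7944 and 6613 were kept. The libraries shared 37 cell barcodes, 13 of them among kept cells. The paper assigns the cell totals of the conditions the other way round, and the labels were followed here. Macrophage-like cells made up 23.1% of the kept control and 68.7% of the kept DTX cells, and fibroblast-like cells 38.6% and 9.92%. The targeted gene *Mrc1* stood at 485 CPM (471 to 500) in control and at 429 CPM (422 to 437) in DTX macrophage-like cells.

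CCL2, CCL7, CCL8 and CCL12 are the monocyte chemoattractant proteins of the mouse, small secreted proteins that many cells release after injury. CCR2, a G protein-coupled receptor, binds CCL2, CCL7 and CCL12 and guides Ly6C-high monocytes from bone marrow into blood and from blood into wounds, where they turn into macrophages. CCL7 also acts on other CC receptors, and mouse CCL8 is known as a ligand of CCR8.

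The 4 ligand genes lie on the plus strand of chromosome 11 (GRCm38), within 81.2 kilobases, with another CC ligand gene between *Ccl7* and *Ccl12*. *Ccl2* (ENSMUSG00000035385) runs from 82035571 to 82037453 and *Ccl7* (ENSMUSG00000035373) from 82045712 to 82047525, with 8.26 kilobases between them. *Ccl12* (ENSMUSG00000035352) runs from 82101845 to 82103400 and *Ccl8* (ENSMUSG00000009185) from 82115185 to 82116799. *Ccr2* (ENSMUSG00000049103) lies on the plus strand of chromosome 9 from 124101950 to 124113557. Each is annotated as a protein-coding gene. The 120 bases before the RefSeq start, which for *Ccr2* lies 233 bases after the annotated gene start given above, are shown for the genes of this group with an entry, *Ccl12*, *Ccl8* and *Ccr2* (GRCm38.p6, plus strand, 5′ to 3′), because they set the ligands beside the receptor. Those of *Ccl2* and *Ccl7* were not shown. Capitals mark TATAAA.
Ccl12, chr11:82101725-82101844: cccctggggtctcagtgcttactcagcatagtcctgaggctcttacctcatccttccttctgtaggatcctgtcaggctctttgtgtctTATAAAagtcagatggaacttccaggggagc
Ccl8, chr11:82115065-82115184: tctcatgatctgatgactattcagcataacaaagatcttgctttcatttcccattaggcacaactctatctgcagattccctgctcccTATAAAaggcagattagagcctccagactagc
Ccr2, chr9:124102063-124102182: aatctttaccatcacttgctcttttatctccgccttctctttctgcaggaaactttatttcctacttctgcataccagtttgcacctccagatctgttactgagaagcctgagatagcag
*Ccl12* held TATAAA from 31 to 26 bases and *Ccl8* from 32 to 27 bases before the start, and the window before this start of *Ccr2* did not hold it on either strand. Of 32851 promoter windows of this length, 6.34% held it on at least 1 strand. TGANTCA, GGGNNTTTC, TTCNNNGAA and TTNNGCAA, searched on both strands, were not in these 3 windows, and 3.41%, 1.82%, 3.15% and 4.15% of all windows held them.

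The ligands differed in where they were expressed. *Ccl2* and *Ccl7* were at their highest in stromal cells, apart from *Ccl7* in the DTX library, which was highest in mast-like cells. *Ccl8* was shared between macrophage-like and fibroblast-like cells, and *Ccl12* and *Ccr2* were found mainly in leukocytes. *Ccl2*, the founding member of the family, stood at 8662 CPM (8631 to 8693) in 3065 control fibroblast-like cells and at 7729 CPM (7674 to 7785) in 656 DTX fibroblast-like cells. In pericyte-like cells, which wrap small vessels, it stood at 7563 CPM in 61 control and at 9372 CPM in 112 DTX cells. Endothelial-like cells held 3054 CPM and 2050 CPM of *Ccl2*, and macrophage-like cells 506 CPM (491 to 521) and 1448 CPM (1435 to 1461). The order of the *Ccl2* levels was thus fibroblast, pericyte and endothelial in the control, with mast-like, macrophage-like and neutrophil-like cells next, whose intervals overlapped from each to the next. In the DTX library pericyte-like cells came first, followed by fibroblast-like, mast-like, endothelial-like and macrophage-like cells.

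*Ccl7* ran with *Ccl2* in most classes at a lower level. It stood at 4210 CPM (4189 to 4232) in control and at 3120 CPM (3087 to 3157) in DTX fibroblast-like cells, at 1891 CPM and 1290 CPM in pericyte-like cells and at 847 CPM (828 to 866) and 1249 CPM (1237 to 1261) in macrophage-like cells. In the DTX library the intervals of pericyte-like and macrophage-like cells overlapped. The highest level of *Ccl7* in the DTX library was that of mast-like cells, at 9041 CPM (8552 to 9551), which rests on 1278 UMIs of 18 cells.

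*Ccl8* was the ligand with the highest level in control macrophage-like cells, at 1326 CPM (1303 to 1349), and stood at 1046 CPM (1035 to 1057) in control fibroblast-like cells. In the DTX library these levels were 230 CPM (225 to 235) and 470 CPM (456 to 484). Pericyte-like cells held 172 CPM in control and 1.19 CPM, from 2 UMIs, in the DTX library. *Ccl12* was the lowest of the 4 ligands in macrophage-like cells, at 89.1 CPM (83.1 to 95.4) in the control and 53.5 CPM (51.0 to 56.1) in the DTX library. In fibroblast-like cells it stood at 2.43 CPM and 1.95 CPM, and no UMI was found in DTX NK or T-like, mast-like and pericyte-like cells.

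*Ccr2* was highest in NK or T-like cells, at 161 CPM (142 to 182) in the control and 239 CPM (214 to 265) in the DTX library, followed by macrophage-like cells, at 123 CPM (116 to 130) and 175 CPM (170 to 179). Dendritic-like cells held 36.2 CPM (29.95 to 43.5) and 55.7 CPM (48.7 to 63.5). In fibroblast-like cells *Ccr2* stood at 1.06 CPM and 6.79 CPM, and in epithelial-like cells at 0.842 CPM and 4.38 CPM. In bulk of a class, fewer expressing cells and fewer molecules per expressing cell give the same CPM, so the shares of cells are given below.

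**Figure D1:**
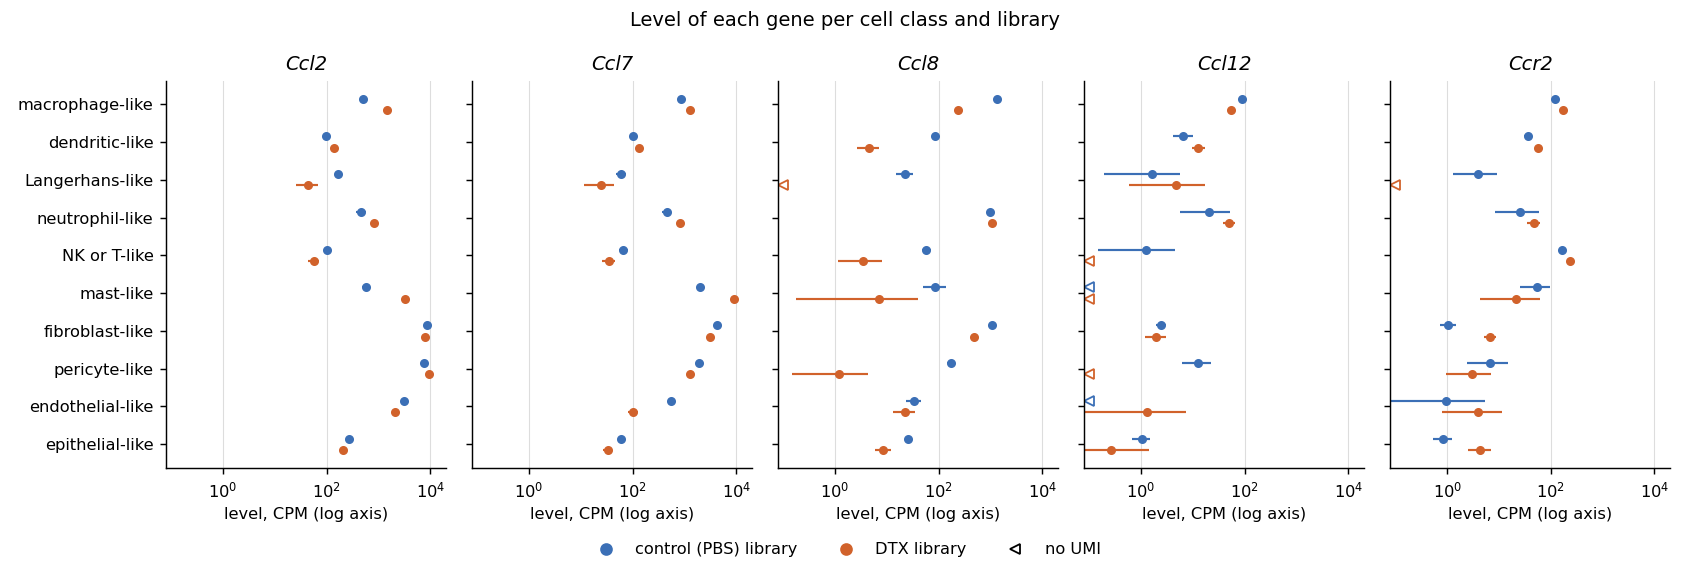
Level of each gene in CPM (log axis) per cell class, with points for the control and the DTX library and bars for 95% Poisson intervals; open triangles mark classes without a UMI. *Ccl2* was between 7563 and 9372 CPM in fibroblast-like and pericyte-like cells, whereas *Ccr2* was highest in NK or T-like and macrophage-like cells.

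The classes that held each transcript differed between the libraries, as did the shares of cells, with macrophage-like cells at 23.1% of control and 68.7% of DTX cells. Fibroblast-like cells held 92.9% of the *Ccl2* UMIs of the control library and 53.2% of those of the DTX library. Macrophage-like cells held 1.44% of them in the control and 32.5% in the DTX library, and pericyte-like cells 2.07% and 11.2%. For *Ccl7* the macrophage-like share was 4.91% in the control and 52.7% in the DTX library, and for *Ccl8* it was 24.4% and 55.7%. *Ccl12* and *Ccr2* came mainly from macrophage-like cells in both libraries, with 84.3% and 92.9% of the *Ccl12* UMIs and 71.0% and 88.6% of the *Ccr2* UMIs. NK or T-like cells held 16.3% of the *Ccr2* UMIs in the control and 5.46% in the DTX library.

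Over all kept cells the control library held more of 3 ligands and the DTX library more of *Ccl12* and *Ccr2*. *Ccl2* stood at 4018 CPM and 2572 CPM, *Ccl7* at 1972 CPM and 1368 CPM and *Ccl8* at 621 CPM and 238 CPM in control and the DTX library. *Ccl12* stood at 12.1 CPM and 33.2 CPM and *Ccr2* at 19.8 CPM and 114 CPM. These totals moved with the shares of cell classes given above, and how far sorting or dissociation set those shares was not tested.

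**Figure D2:**
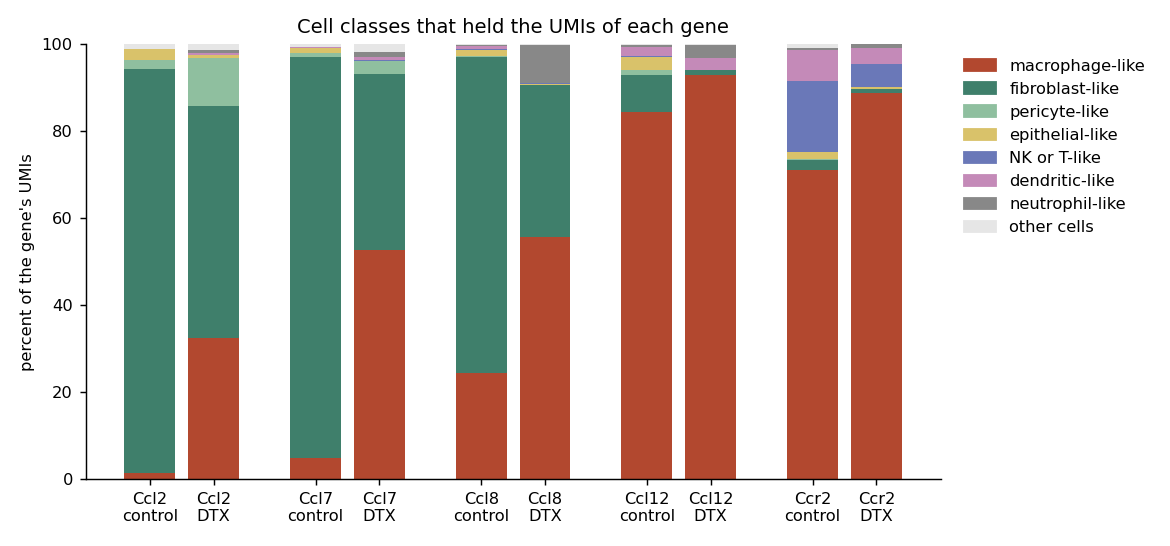
Percent of the UMIs of each gene that lay in each cell class, per library. Fibroblast-like cells held 92.9% of *Ccl2* in the control and 53.2% in the DTX library, and macrophage-like cells held 71.0% and 88.6% of *Ccr2*.

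Free RNA from lysed cells reaches every droplet, so the levels were set beside those of cells that should lack the transcripts. In NK or T-like cells, which are no known main source of these ligands, *Ccl2* stood at 103 CPM in control and 56.0 CPM in the DTX library and *Ccl7* at 66.3 CPM and 34.3 CPM. *Ccl8* stood there at 57.7 CPM and 3.50 CPM, but 3 control cells held 76.6% of its UMIs, and those cells carried the macrophage markers at 41720 CPM against 720 CPM in the remaining NK or T-like cells. With every cell thinned to 2000 UMIs, *Ccl2* was detected in 21.0% and 5.26% of NK or T-like cells. The 10 fibroblast markers summed to 971 CPM in control and to 255 CPM in DTX macrophage-like cells, with none of the 10 at 0. If each of these UMIs had come from fibroblast-like cells together with their chemokines, they would have brought 85.2 CPM of *Ccl2*, 41.4 CPM of *Ccl7* and 10.3 CPM of *Ccl8* to control macrophage-like cells and 27.8, 11.2 and 1.69 CPM to DTX macrophage-like cells. The measured levels there were higher in each case. In the other direction, the 10 macrophage markers in fibroblast-like cells correspond to 7.98 CPM of *Ccr2* in control and 10.9 CPM in DTX cells, where 1.06 CPM and 6.79 CPM were measured. A single marker gave 1590 of 1695 CPM and 695 of 1054 CPM of these sums, and the remaining 9 markers correspond to 0.809 CPM and 5.34 CPM of *Ccr2*. For *Ccl12* in fibroblast-like cells the 10 markers correspond to 5.78 CPM and 3.35 CPM and the 9 markers to 0.586 CPM and 1.63 CPM, against the measured 2.43 CPM and 1.95 CPM. Leaving out the highest marker was chosen after seeing the data, and whether these low levels lay above the background depended on it.

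In macrophage-like cells *Ccl2* was higher and *Ccl8* lower in the DTX than in the control library by more than the 2-fold used as a call. *Ccl2* went from 506 to 1448 CPM, a log2 ratio of 1.52 (1.47 to 1.56), and *Ccl8* from 1326 to 230 CPM, a log2 ratio of -2.52 (-2.57 to -2.48). *Ccl7* and *Ccr2* were higher in the DTX library by less than 2-fold, with log2 ratios of 0.56 (0.53 to 0.60) and 0.50 (0.41 to 0.60). *Ccl12* was lower, with a log2 ratio of -0.73 (-0.85 to -0.61). So 2 of the 5 genes passed 2-fold, 1 in each direction. Among the 10254 genes that reached 50 UMIs over the macrophage-like cells of both libraries, 4.82% did so, 1.55% higher and 3.27% lower in the DTX library, and the median log2 ratio over these genes was 0.06. Summed over the 4 ligands, macrophage-like cells held 2767 CPM in control and 2980 CPM in the DTX library. *Ccl8* made up 47.9% of this sum in the control and 7.71% in the DTX library, whereas *Ccl2* made up 18.3% and 48.6%.

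Different clusters held most macrophage-like cells of the 2 libraries. A cluster led by *C1qb*, *C1qa* and *C1qc*, genes of the first complement component, held 1772 of 1839 control and 2372 of 4543 DTX cells. A cluster led by *Chil3*, *Arg1* and *Cxcl3* held 67 control and 2171 DTX cells. Within the first, the log2 ratio was 1.17 for *Ccl2*, 0.77 for *Ccl7*, -1.69 for *Ccl8*, -0.43 for *Ccl12* and 0.36 for *Ccr2*. Within the second, which rests on few control cells, it was 2.57 for *Ccl2* and 2.34 for *Ccl7*, and *Ccl12* turned to 1.97, from 3 control UMIs.

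The shares of cells with a UMI moved with the levels for *Ccl2*, *Ccl8*, *Ccl12* and *Ccr2*. With cells thinned to 2000 UMIs and 226 control and 140 DTX cells left out as shallower, a UMI of *Ccl2* was found in 41.9% (39.5% to 44.4%) of control and 50.7% (49.2% to 52.2%) of DTX macrophage-like cells, and *Ccl8* in 25.0% (22.9% to 27.2%) and 5.72% (5.06% to 6.45%). Of the cells left out, 211 control and 99 DTX cells lay in the *Klf2*-like state described below, which held the highest control level of *Ccl8*. Thinned values of macrophage-like cells given below leave out the same cells. *Ccr2* was detected in 18.7% (16.9% to 20.7%) and 26.2% (24.9% to 27.5%) and *Ccl12* in 9.05% (7.70% to 10.6%) and 6.61% (5.89% to 7.38%). The share of *Ccl7* went against its level, with 40.1% (37.6% to 42.5%) in the control and 37.0% (35.6% to 38.4%) in the DTX library, so no order is read from it. Without thinning the shares were 63.9% and 66.4% for *Ccl2*, 55.9% and 49.1% for *Ccl7*, 34.3% and 7.92% for *Ccl8*, 14.4% and 12.4% for *Ccl12* and 35.5% and 54.5% for *Ccr2*, at medians of 4836 and 6775 UMIs per cell. In NK or T-like cells, at medians of 6534 and 8059 UMIs, the thinned shares were 11.9% and 3.29% for *Ccl7*, 5.02% and 0% of 152 cells for *Ccl8* and 0% in both libraries for *Ccl12*. In epithelial-like cells, at medians of 12595 and 16070 UMIs, *Ccr2* was detected in 0.197% and 0.437%.

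In fibroblast-like cells the levels of *Ccl2*, *Ccl7* and *Ccl8* were lower in the DTX library, that of *Ccl8* by more than 2-fold. The log2 ratio was -0.16 (-0.18 to -0.15) for *Ccl2*, -0.43 (-0.45 to -0.41) for *Ccl7* and -1.15 (-1.20 to -1.11) for *Ccl8*, while 4.02% of 11813 genes passed 2-fold in either direction. *Ccr2* also passed it, at 1.92 (1.52 to 2.30) from 37 and 66 UMIs, at levels close to the background given above. The 2 fibroblast clusters differed. In the cluster led by *Ctsk* and *Serpina3n*, *Ccl2* went from 8689 to 5632 CPM and *Ccl8* from 1431 to 750 CPM. In the cluster led by *Mfap5* and *Sfrp2*, *Ccl2* went from 8617 to 9087 CPM and *Ccl8* from 412 to 289 CPM. The first cluster held 2159 of 3065 control but 311 of 656 DTX fibroblast-like cells. Restricted to cells with at most 2000 genes, which left 69 DTX fibroblast-like cells, the ratio of *Ccl2* was 1.19, and scaled by the median ratio of genes, which lay 0.13 above 0, it was -0.30.

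Among the smaller classes *Ccl8* was lower in the DTX library in dendritic-like, NK or T-like, epithelial-like and pericyte-like cells, with log2 ratios of -3.98 (-4.59 to -3.39), -3.71 (-4.82 to -2.62), -1.49 (-1.98 to -1.03) and -6.31 (-7.26 to -5.002). The levels in NK or T-like, epithelial-like and pericyte-like cells are set beside those that RNA of average macrophage-like cells would bring. These are no upper limits, since the *Ccl8* UMIs were unevenly spread over macrophage-like cells. RNA of fibroblast-like cells was not estimated for these classes. In NK or T-like cells the 57.7 CPM and 3.50 CPM measured stood beside 71.3 CPM and 8.42 CPM from 10 macrophage markers, and 48.02 CPM and 8.14 CPM without the highest marker. In epithelial-like cells the 25.7 CPM and 8.50 CPM measured stood beside 255 CPM and 60.3 CPM, and 5.42 CPM and 7.76 CPM without the highest marker. In pericyte-like cells the 172 CPM and 1.19 CPM measured stood beside 45.0 CPM and 9.35 CPM, and 19.6 CPM and 5.54 CPM without the highest marker. In control pericyte-like cells 3 cells held 73.4% of 154 *Ccl8* UMIs, and in control dendritic-like cells 3 cells held 54.7% of 274, with macrophage markers at 24291 CPM in those cells against 3207 CPM in the rest. *Ccl7* was lower in DTX endothelial-like cells, at 101 CPM against 549 CPM, a log2 ratio of -2.43 (-2.79 to -2.09). There 36 of 73 control and 11 of 55 DTX cells had a UMI of *Ccl7*, and 3 control cells held 47.9% of it. *Ccl2* in endothelial-like cells went from 3054 to 2050 CPM, a log2 ratio of -0.57 (-0.66 to -0.49).

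Mast-like and neutrophil-like cells showed how far a level can rest on a few cells. In mast-like cells *Ccl7* went from 1961 CPM in 34 control cells to 9041 CPM in 18 DTX cells, and *Ccl2* from 573 to 3233 CPM, log2 ratios of 2.20 (2.04 to 2.38) and 2.49 (2.19 to 2.81). Of the DTX mast-like cells 14 had a UMI of *Ccl7* and their median cell stood at 5567 CPM, against 20 of 34 and 166 CPM in the control. Without the 3 cells with the most UMIs the levels of *Ccl7* were 589 CPM and 5439 CPM. For *Ccl2*, 3 DTX mast-like cells held 76.1% of the UMIs. Without the 3 cells with the most UMIs its levels were 381 CPM in control and 1278 CPM in DTX mast-like cells, and the median cells stood at 202 CPM and 749 CPM. In neutrophil-like cells *Ccl8* stood at 995 CPM in control and 1045 CPM in the DTX library, but 3 of 456 DTX cells held 94.1% of its 1149 UMIs. Without them it stood at 63.5 CPM, and those 3 cells carried the macrophage markers at 19321 CPM, against 5006 CPM in the other neutrophil-like cells. In the control 3 of 129 cells held 73.2% of 194 UMIs, with macrophage markers at 34834 CPM against 6160 CPM, and without them *Ccl8* stood at 287 CPM. The median was 1229 and 1908 UMIs per neutrophil-like cell.

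The macrophage-like cells were clustered again without the 5 genes, the other chemokine genes and the subset genes of the study, so that the levels compared here did not make the states. This gave 6 states. The largest, with 829 control and 1070 DTX cells, was led by *Cbr2*, *Fabp5*, *Selenop* and the C1q genes beside *Ccl8* and *Ccl7*, and stayed unnamed. In it 0 of 7 *C1qa*, 1 of 7 *Cbr2* and 4 of 6 MHCII markers were raised over the median state. It is called C1q and *Cbr2*-led after its leading genes alone. A *Vcan*-like state with 7 of 7 markers raised (54 and 1217 cells) was led by *Hp* and *Vcan*, genes of recently arrived monocytes. An MHCII-like state (312 and 737 cells) was led by *Mgl2* and antigen presentation genes. A *Klf2*-like state (625 and 404 cells) was led by the heat shock genes *Hspa1a* and *Hspa1b* and had a low median of 2797 and 3589 UMIs per cell. It also had 3 of 7 *C1qa* and 2 of 7 *Cbr2* markers raised. A *Cd9*-like state (10 and 1019 cells) was led by *Arg1* and *Cxcl3*, and a state led by *Ctsk* and *Acp5*, genes known from osteoclasts, held 9 and 96 cells.

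*Ccl2* and *Ccl7* were spread over the C1q and *Cbr2*-led, *Cd9*-like, *Vcan*-like and *Klf2*-like states. *Ccl8* was held mainly by the C1q and *Cbr2*-led and the *Klf2*-like state. In the DTX library *Ccl2* stood at 2075 CPM in the C1q and *Cbr2*-led, 1958 CPM in the *Cd9*-like, 1613 CPM in the *Vcan*-like, 1034 CPM in the *Klf2*-like, 383 CPM in the MHCII-like and 341 CPM in the *Ctsk*-led state. *Ccl7* stood at 2592 CPM in the C1q and *Cbr2*-led, 1674 CPM in the *Klf2*-like, 1517 CPM in the *Cd9*-like and 764 CPM in the *Vcan*-like state. *Ccl8* stood at 802 CPM and 735 CPM in the C1q and *Cbr2*-led and the *Klf2*-like state. It stood at 3.62 CPM (2.49 to 5.09) in the *Vcan*-like, 12.1 CPM in the MHCII-like and 29.5 CPM in the *Cd9*-like state. In the control library the *Klf2*-like state held 3369 CPM of *Ccl8*, the C1q and *Cbr2*-led state 1019 CPM and the MHCII-like state 100 CPM.

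*Ccl12* was also highest in these 2 states, at a lower level. It stood at 172 CPM in the *Klf2*-like and 94.2 CPM in the C1q and *Cbr2*-led state of the control and at 121 CPM and 94.3 CPM in those of the DTX library. The MHCII-like state held 6.91 CPM and 23.8 CPM. In the DTX library the *Vcan*-like and *Cd9*-like states held 41.4 CPM and 41.9 CPM, so *Ccl12* was less confined to the 2 states than *Ccl8*. *Ccr2* was more even in the control library. Its control levels were 171 CPM in the *Vcan*-like, 144 CPM in the MHCII-like, 129 CPM in the C1q and *Cbr2*-led and 87.2 CPM in the *Klf2*-like state. Its DTX levels ran from 50.3 CPM in the *Ctsk*-led to 294 CPM in the *Klf2*-like state, with 223 CPM in the *Vcan*-like state.

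**Figure D3:**
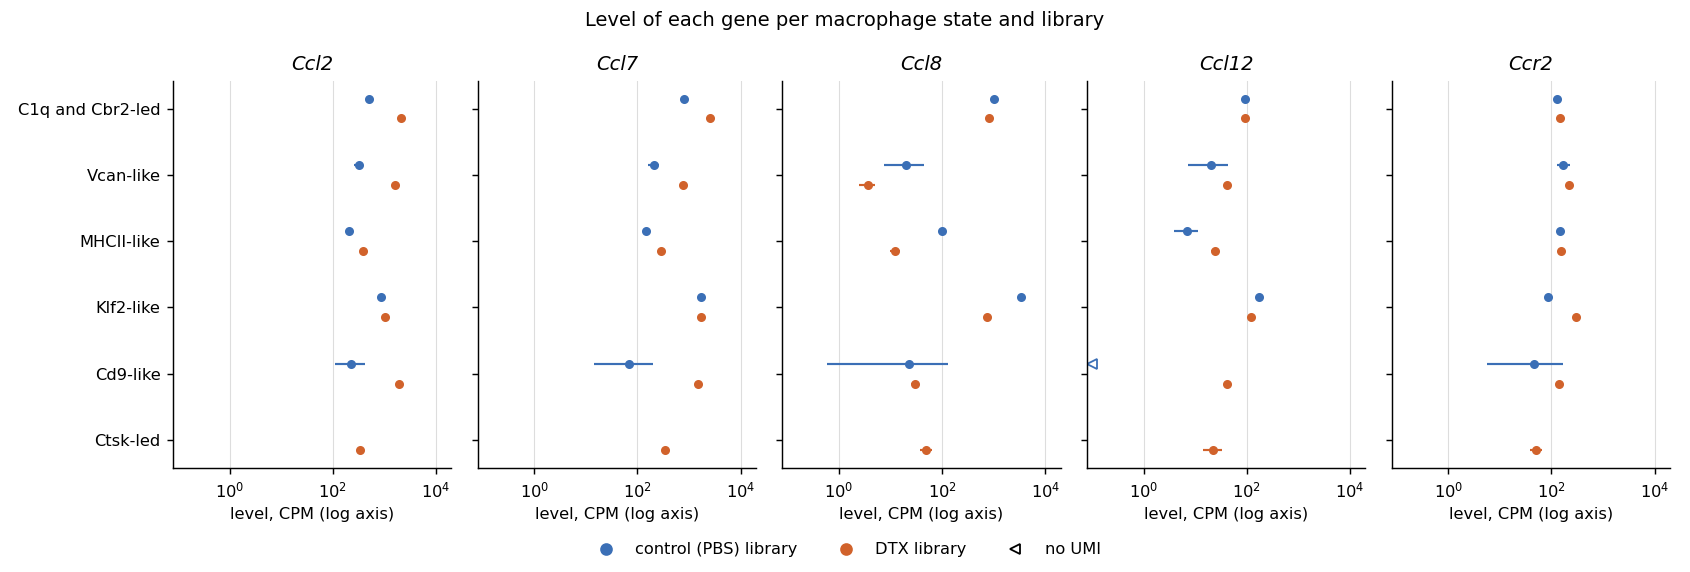
Level of each gene in CPM (log axis) per macrophage state, with points for the 2 libraries and bars for 95% Poisson intervals; states with under 10 cells in a library are not drawn and an open triangle marks no UMI. *Ccl8* stood at 3.62 CPM in the *Vcan*-like and at 802 CPM in the C1q and *Cbr2*-led state of the DTX library.

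Within states, *Ccl2* and *Ccl7* were higher in the DTX library in most comparisons. In the C1q and *Cbr2*-led state *Ccl2* went from 499 to 2075 CPM, a log2 ratio of 2.05 (1.99 to 2.12), and *Ccl7* from 812 to 2592 CPM, a log2 ratio of 1.67 (1.62 to 1.73). In the *Vcan*-like state, from 54 control cells, the ratios were 2.32 (2.03 to 2.62) and 1.87 (1.51 to 2.25), and in the MHCII-like state 0.88 (0.74 to 1.03) and 0.97 (0.79 to 1.14). The *Klf2*-like state stood apart, with 0.28 (0.19 to 0.38) for *Ccl2* and -0.04 (-0.11 to 0.03) for *Ccl7*. These 2 ratios depended on the clustering. A *Klf2*-like state had 0.45 and 0.56 in a finer clustering (resolution 1.0), and -0.36 and -0.34 when the subset genes of the study were used. The *Ccl2* and *Ccl7* ratios of C1q-led cells also depended on it. A *C1qa*-like state had 1.17 and 0.93 at resolution 1.0, and 0.65 and 0.50 with the subset genes. An unnamed state led by *Ccl7* and *Cbr2* had 1.49 and 1.40 in that last clustering. *Ccl8* was lower in the DTX library by -0.34 (-0.40 to -0.29) in the C1q and *Cbr2*-led state, by -2.20 (-2.28 to -2.11) in the *Klf2*-like and by -2.95 (-3.31 to -2.59) in the MHCII-like state. *Ccl12* did not differ detectably in the C1q and *Cbr2*-led state (0.00, -0.18 to 0.18), was lower in the *Klf2*-like (-0.50, -0.74 to -0.26) and higher in the MHCII-like state (1.65, 0.96 to 2.39). The MHCII-like ratio rests on 15 control and 155 DTX UMIs. At resolution 1.0 MHCII-like states with at least 50 UMIs had -0.90 and 2.42 (from 5 control UMIs), so the sign depended on the clustering. The *Klf2*-like ratio was -0.17 (-0.49 to 0.15) at resolution 1.0 and -1.81 with the subset genes. *Ccr2* was higher in the *Klf2*-like state (1.74, 1.51 to 1.98) and had ratios of 0.21 (0.06 to 0.36) in the C1q and *Cbr2*-led, 0.10 (-0.08 to 0.29) in the MHCII-like and 0.38 (-0.02 to 0.81) in the *Vcan*-like state. Its *Klf2*-like ratio was 1.80 at resolution 1.0 but 0.57 (0.17 to 1.00), under 2-fold, with the subset genes. The *Cd9*-like and *Ctsk*-led states had 10 and 9 control cells, too few for a ratio to be read.

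**Figure D4:**
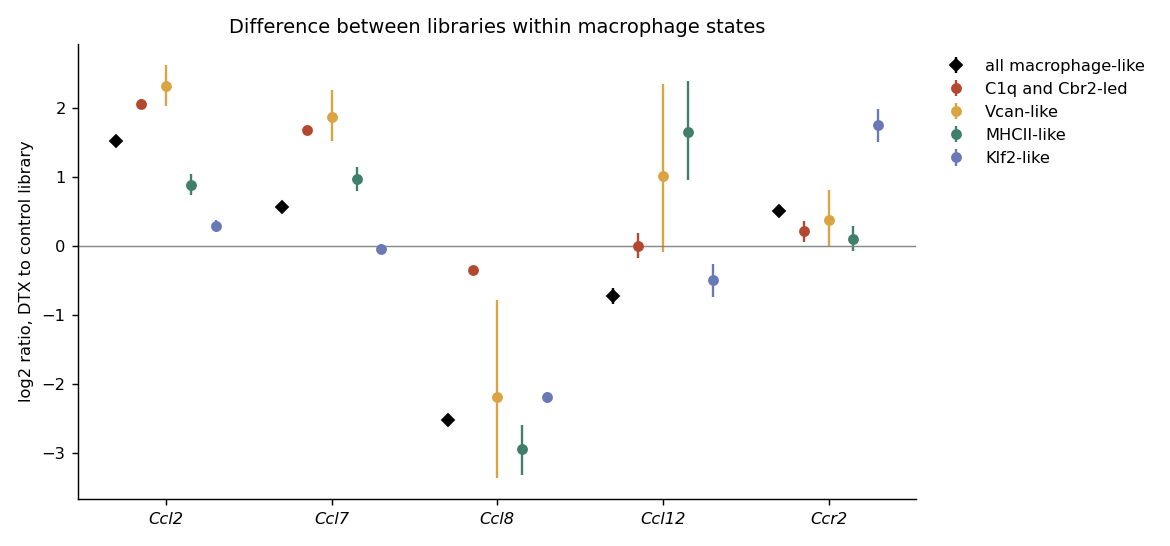
Log2 ratio of the DTX to the control library for each gene in all macrophage-like cells (diamonds) and within the 4 states with at least 50 cells in both libraries (circles), with bars for 95% conditional binomial intervals. *Ccl2* lay above 0 in each of these states, from 0.28 to 2.32, and *Ccl8* below 0 in each, from -0.34 to -2.95. The *Ccl8* ratio of the *Vcan*-like state rests on 6 control and 33 DTX UMIs, under the 50 UMIs needed for a call.

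Weighting the state levels of the DTX library by the share of UMIs that each state had in the control gave log2 ratios of 1.47 for *Ccl2* and 1.05 for *Ccl7*, against 1.52 and 0.56 as measured. For *Ccl8* this gave -1.22 in place of -2.52 and for *Ccl12* -0.12 in place of -0.73. Weighting the state levels of the control by the DTX shares instead gave 2.06 for *Ccl2*, 1.70 for *Ccl7* and -0.98 for *Ccl8*. For *Ccl12* it gave 0.48, so its sign depended on the weights. This weighting rests in part on the few control cells of the *Cd9*-like and *Ctsk*-led states. The split of the *Ccl8* difference depended on how the states were made. When the subset genes of the study were used for clustering, a *C1qa*-like state of 1305 control and 308 DTX cells held 1830 and 1655 CPM of *Ccl8*, a log2 ratio of -0.15. Smaller states of that clustering kept a large difference. A *Klf2*-like state of 46 control and 134 DTX cells held 2478 and 316 CPM of *Ccl8* (-2.97). An *Ifit1*-like state of 60 and 92 cells held 1636 and 253 CPM (-2.69). In that clustering an unnamed state led by *Ccl7*, *Cbr2* and *Ly6a* held 74 control and 1036 DTX cells, with *Ccl2* at 811 and 2273 CPM, *Ccl7* at 1092 and 2887 CPM and *Ccl8* at 114 and 593 CPM.

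The UMIs of the ligands were unevenly spread over macrophage-like cells. After thinning, the 10% of cells with the most UMIs held 59.3% of the *Ccl2* UMIs in the control and 59.3% in the DTX library, 69.7% and 70.2% of the *Ccl7* UMIs and 86.1% and 100% of the *Ccl8* UMIs. For *Ccr2*, with at most 4 and 8 UMIs in a cell, these shares were 62.4% and 53.8%. The 100% for *Ccl8* was set by its detection, since 5.72% of DTX macrophage-like cells had a UMI of it after thinning. Cells with 10 or more *Ccl2* UMIs after thinning were 1.86% of control and 9.56% of DTX macrophage-like cells. For *Ccl8* the reverse was seen, with 9.36% and 1.36%. These few DTX cells held 75.8% of the *Ccl8* UMIs of the DTX macrophage-like cells. Of all 60 of them, 42 lay in the C1q and *Cbr2*-led state and 15 in the *Klf2*-like state. In control fibroblast-like cells, by contrast, 65.7% of cells had 10 or more *Ccl2* UMIs.

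Ligands were detected together in the same macrophage-like cells, and the shares of cells with *Ccl2* and *Ccl7* had overlapping intervals with and without *Ccr2*. *Ccl7* was found in 58.6% (54.8% to 62.3%) of control cells with and in 26.7% (23.9% to 29.6%) of those without a UMI of *Ccl2*. In the DTX library these shares were 59.1% (57.0% to 61.1%) and 14.3% (12.9% to 15.9%). *Ccl7* was found in 63.8% of control cells with and 32.1% of those without *Ccl8*, and in 73.0% and 34.8% in the DTX library. In the other direction, *Ccl8* was found in 39.8% of control cells with and 15.1% without *Ccl7*. In the DTX library these shares were 11.3% and 2.45%. *Ccl12* was found in 21.3% of control cells with and 4.96% without *Ccl8*, and in 17.9% and 5.93% in the DTX library. *Ccl2* was found in 40.7% (35.1% to 46.5%) of control cells with and in 42.2% (39.5% to 44.9%) without a UMI of *Ccr2*. In the DTX library it was found in 53.6% (50.6% to 56.5%) and 49.6% (47.9% to 51.4%). Overlapping intervals do not show that 2 shares are equal. *Ccl8* was found in 16.2% (12.3% to 20.9%) of control cells with and 27.0% (24.6% to 29.5%) without *Ccr2*, intervals that lay apart, and in 4.17% (3.09% to 5.49%) and 6.27% (5.47% to 7.16%) in the DTX library, where they overlapped. None of the 4 ligands was detected in 35.5% of control and 40.3% of DTX macrophage-like cells at this depth, and all 4 in 3.04% and 0.818%. In fibroblast-like cells 3 ligands were detected in 50.7% of control and 29.1% of DTX cells.

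**Figure D5:**
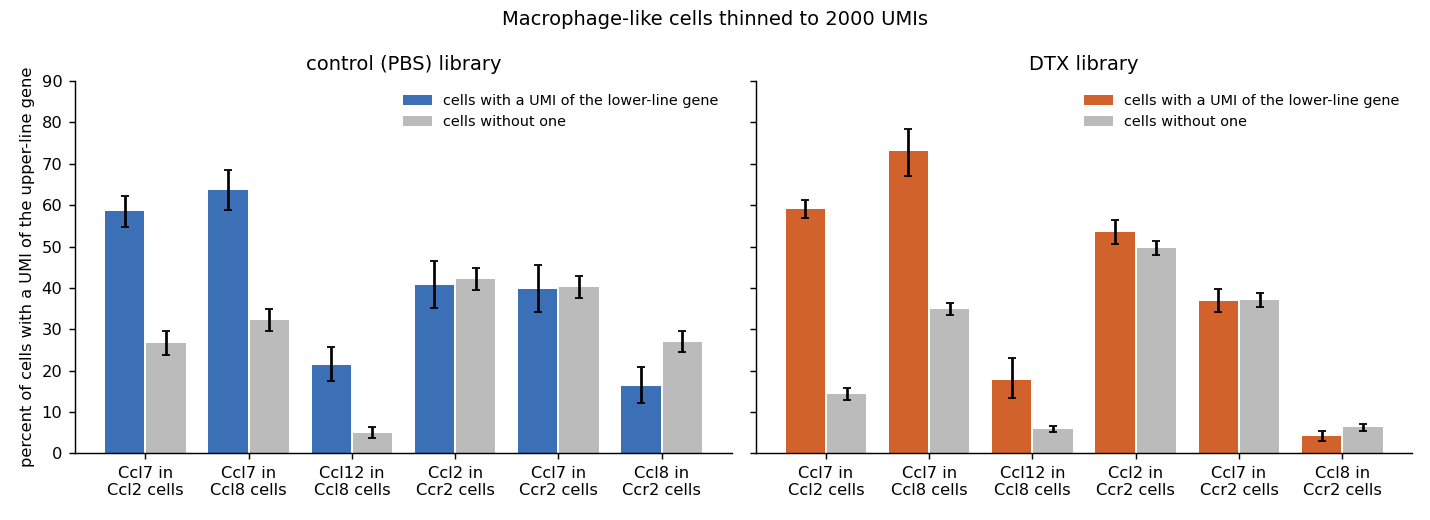
Percent of macrophage-like cells, thinned to 2000 UMIs, with a UMI of the upper-line gene among cells with (coloured) and without (grey) a UMI of the lower-line gene, with 95% Clopper-Pearson intervals. *Ccl7* was found in 59.1% of DTX cells with *Ccl2* and in 14.3% without it, whereas *Ccl7* in cells with and without *Ccr2* differed by less than the intervals.

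Cells with a UMI of each gene also differed in other macrophage genes. Lists of 9 monocyte genes and 9 resident macrophage genes were summed over cells with and without a UMI, after all genes had been thinned to 2000 UMIs per cell in a draw of its own, which left 422 control and 238 DTX cells with *Ccl8*. Macrophage-like cells with *Ccl8* held 951 CPM of the monocyte list in the control, against 2434 CPM in those without, a log2 ratio of -1.35 (-1.46 to -1.25), and 2903 against 5954 CPM in the DTX library, -1.04 (-1.11 to -0.96). Of the resident list, 5 of 6 genes with at least 50 UMIs were at least 2-fold higher in cells with *Ccl8* in both libraries. The share of all genes past 2-fold in this comparison was not computed. *Gas6*, a bridging molecule for the uptake of dead cells, stood at 177 CPM with and 22.7 CPM without *Ccl8* in the control, *Folr2*, a folate receptor of tissue macrophages, at 233 and 57.9 CPM, and *Cbr2*, a carbonyl reductase, at 286 and 78.5 CPM. Cells with *Ccr2* showed the reverse for the monocyte list, with 2893 against 1842 CPM in the control, a log2 ratio of 0.65 (0.57 to 0.73), and 6841 against 5409 CPM in the DTX library, 0.34 (0.31 to 0.37). *Ly6c2*, which marks the monocytes that carry CCR2, stood at 538 CPM with and 338 CPM without *Ccr2* in the control and at 1051 and 755 CPM in the DTX library. For *Ccl2* the monocyte list was lower in control cells with it, by -0.14 (-0.21 to -0.07), and higher in DTX cells with it, by 0.24 (0.22 to 0.27). The resident list was higher in cells with each of the other ligands too, with log2 ratios of 0.52 and 0.56 for *Ccl2*, 0.91 and 0.84 for *Ccl7* and 0.56 and 0.84 for *Ccl12* in control and DTX cells, and of 1.09 and 1.39 for *Ccl8*.

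Other chemokine genes of macrophage-like cells lay on both sides of 0, and their counts stand beside the 1.55% of all 10254 genes past 2-fold higher and the 3.27% past 2-fold lower. Of 16 further CC and CX3C ligand genes, 10 had at least 50 UMIs, of which 2 were at least 2-fold higher and 4 at least 2-fold lower in the DTX library (median log2 ratio -0.32). The higher ones were *Ccl24*, which draws eosinophils, at 53.6 and 234 CPM (2.11) and *Ccl3*, a ligand of CCR1, at 60.4 and 145 CPM (1.25). The lower ones were *Ccl17* at 23.0 and 6.91 CPM (-1.60), *Ccl5* at 103 and 40.3 CPM (-1.33), *Ccl27a* at 7.32 and 2.52 CPM (-1.24) and *Ccl20* at 2.80 and 0.883 CPM (-1.01). *Ccl27a* rests on 68 and 80 UMIs and *Ccl20* on 26 and 28. RNA of other classes was not estimated for these genes. Of 15 further receptor genes, 7 had at least 50 UMIs, and *Ccr1*, which CCL7 also binds, was the 1 that passed 2-fold, at 185 and 516 CPM (1.47). Of 9 monocyte genes, 7 were at least 2-fold higher in the DTX library and 0 lower (median log2 ratio 1.19), among them *Chil3* (3.10), *Vcan* (2.13), *Hp* (1.98) and *Plac8* (1.19). Of 7 resident macrophage genes with at least 50 UMIs, 0 were at least 2-fold higher and 3 at least 2-fold lower, *Gas6* (-1.89), *Folr2* (-1.62) and *Pltp* (-1.33). The other 4 passed in neither direction. These were *Cbr2* (-0.72), *Cd163* (-0.70), *Mrc1* (-0.18) and *F13a1*, which was higher in the DTX library (0.49). The remaining monocyte genes were *Ms4a4c* (0.82) and *Itga4* (0.10), an integrin subunit, and the ratio of *Ccr2* (0.50) lay between them.

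The genes most like each member were ranked by Pearson's correlation of log2(CPM + 10) over 17 pairs of class and library with at least 50 cells. The pairs share 2 libraries and differ in depth, so these values are descriptions. Among 12125 genes, *Pofut2* (r = 0.96), *Nupr1* (0.94) and *Laptm4a* (0.93) were nearest to *Ccl2*, *Dram1* (0.92), *Timp2* (0.91) and *Cd302* (0.91) to *Ccl7*, and *Selenop* (0.89), *Ctsb* (0.85) and *Por* (0.83) to *Ccl8*. *Apobec1*, *Lmbrd1* and *Pf4* were nearest to *Ccl12* (each 0.93), and *Dok2* (0.95), *Cysltr1* (0.94) and *Atp8b4* (0.94) to *Ccr2*. *Ccl2* and *Ccl7* correlated with each other at 0.85, *Ccl7* and *Ccl8* at 0.66 and *Ccl2* and *Ccr2* at -0.53. Over 10 pairs of macrophage state and library, *Rab1a* (0.96) and *Ap3s1* (0.96) were among the 3 nearest to *Ccl7*. *Rab1a* (0.93), *Cdc42* (0.93) and *Ptbp3* (0.92) were nearest to *Ccl2*, and *Gpt2* (0.98), *Gltp* (0.98) and *Nrp1* (0.97) to *Ccl8*. *Wdfy3*, *Hacd4* and *Lamp1* (each 0.95) were nearest to *Ccl12*, and *H3f3b* (0.96), *Insig1* (0.95) and *Trim56* (0.94) to *Ccr2*. There *Ccl2* and *Ccl7* correlated at 0.88, *Ccl7* and *Ccl12* at 0.88 and *Ccl8* and *Ccr2* at -0.13.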

How the data were processed

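Live wound cells were captured in droplets (10x Genomics) as 1 control (PBS) and 1 DTX library. The authors deposited raw UMI counts from Cell Ranger 6.1.1 per the labels (the methods name another version) against mm10, without normalization. Cells were kept from 500 genes upward and up to 6% mitochondrial UMIs. Doublets were scored with Scrublet (scanpy 1.11.5, expected rate 8%), which called 4.59% of control cells and 0 DTX cells, where the 575 highest scores were removed instead. The 2000-gene limit of the methods was used as an alternative. Counts were clustered in R 4.3.3 with Seurat 5.3.0 (2000 variable genes, 30 components, resolution 0.2, and 0.5 for macrophage states), without the chemokine and receptor genes studied here, 38 in all, and for states without 1005 genes. Clusters were named from marker lists, and 18 myocyte-like cells were not compared.

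UMIs were summed per class and library and compared as log2 ratios after 1 CPM was added, with exact Poisson, conditional binomial and Clopper-Pearson intervals in Python 3.11.15 (scipy 1.17.1). A call needed 2-fold and 50 UMIs in both libraries together. The ratios were checked on simulated counts. Genes named are the 5 members, *Mrc1*, list genes past 2-fold (at most 5 per direction), the 3 genes most like each member, and genes that lead a state, of which a few are not reported here. *Itga4*, *Ms4a4c*, *Cbr2*, *Cd163*, *F13a1* and the list genes in cells with and without a member were named after their values were seen. Members and lists were chosen with earlier results of these data known.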

Additional observations from a re-analysis of the deposited data

Results flagged for a closer look

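*Ccl2* had a log2 ratio of DTX to control of 1.52 in macrophage-like cells and the opposite sign in 4 other classes with at least 50 cells per library, with intervals on opposite sides of 0. It was -0.87 in NK or T-like, -0.16 in fibroblast-like, -0.57 in endothelial-like and -0.36 in epithelial-like cells. In epithelial-like and NK or T-like cells, *Ccl2* stood at 207 and 56.0 CPM in the DTX library, and 3 cells held 57.6% and 52.5% of these UMIs. RNA of average macrophage-like cells would bring 380 and 53.0 CPM there by 10 macrophage markers, and 48.9 and 51.3 CPM without the highest marker. These are no upper limits, since the *Ccl2* UMIs were unevenly spread over macrophage-like cells. What RNA of fibroblast-like cells, which held 92.9% of control and 53.2% of DTX *Ccl2* UMIs, would bring to these classes was not estimated.

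*Ccl7* had a log2 ratio of 0.56 in macrophage-like and of -2.43 in endothelial-like cells, from 576 control and 78 DTX UMIs. It was also below 0 in fibroblast-like (-0.43), pericyte-like (-0.55), NK or T-like (-0.93) and epithelial-like cells (-0.84), with intervals clear of 0. These differences between classes were not tested, since there was 1 library per condition.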

How the results depend on the processing

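No paired analysis was possible because each condition was 1 library, and for the same reason no replicate was left out. The values below are log2 ratios of DTX to control in macrophage-like cells, for *Ccl2*, *Ccl7* and *Ccl8* in this order unless others are named. They were 1.62, 0.82 and -2.69 (*Ccl12* -0.87) with at most 2000 genes per cell, 1.46, 0.45 and -2.70 with doublets kept, 1.35, 0.36 and -2.63 with at most 10% mitochondrial UMIs, 1.44, 0.46 and -2.63 at resolution 0.4 and 1.45, 0.49 and -2.59 when scaled by the median ratio of genes. As means over cells thinned to 2000 UMIs they were 1.46 and 0.52 for *Ccl2* and *Ccl7* and -0.95 for *Ccl12*, and with 10 CPM added *Ccl8* was -2.48. Under the 8 alternatives chosen at the start each of the 5 genes kept its sign, and *Ccr2* ran from 0.43 to 0.59. Alternatives chosen after seeing the data moved them further. With the state shares of the control library the values for *Ccl2*, *Ccl7*, *Ccl8*, *Ccl12* and *Ccr2* were 1.47, 1.05, -1.22, -0.12 and 0.60, and without the *Klf2*-like state 1.89, 1.10, -1.77, -0.35 and 0.31. With the state shares of the DTX library they were 2.06, 1.70, -0.98, 0.48 and 0.49. In the C1q-led cluster alone they were 1.17, 0.77, -1.69, -0.43 and 0.36, and in the *Chil3* and *Arg1*-led cluster alone 2.57, 2.34, -0.87, 1.97 and 0.26. In fibroblast-like cells with at most 2000 genes *Ccr2* turned to -0.93. Of list genes, 11 in place of 7 were lower in the DTX library at a fold of 1.5. The cause of these shifts was not tested. A count of 0 allows up to 3 counts, so low genes in classes of under 100 cells are poorly bounded.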
